A study of Sus scrofa with 3 samples.

Results

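The genes described here are the Wnt ligands, their receptors and co-receptors, the secreted Wnt antagonists, the R-spondins with their receptors, the Axins and the TCF/LEF transcription factors. They were chosen by gene name and not by a cut on level, though with earlier results of these data known. Of the 30477 genes in the deposited table, 54 carried such a name. All 54 are protein-coding. The RNA came from 3 cultures of mesenchymal stem cells (MSC, fibroblast-like cells that adhere to plastic) taken from the fat of adult pigs (Sus scrofa) and grown in advanced MEM, a culture medium, with lysate of human platelets. Total RNA was prepared with a miRNeasy kit, and libraries were made from 0.5 µg of it with a TruSeq V2 RNA-Seq kit. The labels give no treatment and a single group, so the questions are how strongly each gene was expressed and how far the cultures differed. The series belongs to a study of such cells placed at arteriovenous fistulas, the vessel joins used for hemodialysis. The labels state no breed, sex, age in months, passage number or animal for a culture, and p-values therefore measure the spread between these samples, which may be technical.

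As background, Wnt proteins are secreted lipid-modified signals that bind Frizzled receptors on the cell surface. Together with LRP5 or LRP6 they block the complex, built on an Axin scaffold, that destroys beta-catenin, which then enters the nucleus and activates genes with TCF/LEF factors. Other Wnt proteins, WNT5A in particular, act largely through Frizzled and ROR receptors on cell movement and polarity without beta-catenin. In fat tissue, beta-catenin signalling is known to hold back the formation of adipocytes and to favour bone-forming fates of stromal cells.

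The libraries held 51788677, 62248183 and 64774044 reads over genes in cultures 1, 2 and 3, of which 181422, 155707 and 207417 fell on the 54 Wnt genes. The unit is RPKM, read counts divided by gene length in kilobases and scaled to the library's reads over the table's genes, so levels of different genes can be set side by side. The library of culture 1 stood apart: the share of its reads on small non-coding RNA genes was 28.3%, against 9.12% in culture 2 and 8.36% in culture 3, and this lowers the RPKM of all other genes in culture 1. The 7 MSC markers examined (THY1, NT5E, ENG, CD44, ITGB1, PDGFRA and PDGFRB) were all above 1 RPKM. The 3 adipocyte, 4 endothelial, 5 leukocyte, 5 epithelial and mesothelial and 3 Schwann cell markers measured were all below 1 RPKM, with sums per culture of at most 0.939 RPKM for any of these lists. Of 4 skeletal muscle markers, MYOD1, PAX7 and MYF5 were below 1 RPKM, but DES had 0.138, 6.37 and 0.303 RPKM and was undecided. The skeletal muscle list summed to 6.54 RPKM in culture 2. In RNA of whole cultures, fewer cells of a type and less RNA per cell cannot be told apart.

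A minority of the Wnt genes carried nearly all of the RNA. In a test of each gene's mean against 1 RPKM (limma on log2(RPKM + 0.5), adjusted over 29479 genes with a read), 17 of 53 testable Wnt genes lay above 1 RPKM and 26 below, and 10 were undecided. Of all genes tested, 30.6% lay above and 60.8% below, and of the protein-coding genes among them 42.0% lay above and 47.8% below. The Wnt genes stood at 32.1% above and 49.1% below, the first close to the share over the whole table and under that of protein-coding genes. Their median difference from 1 RPKM was -0.45 on the scale of log2(RPKM + 0.5), against -1.27 for all genes and -0.25 for protein-coding genes. All log2 differences given here are on that scale, where the added 0.5 draws values towards 1 RPKM, low values most. Without it, the median of the mean RPKM was 0.630 for the 54 members, 0.109 for all 30477 genes and 0.715 for the 20288 protein-coding genes. By mean, 24 members reached 1 RPKM, 11 lay between 0.1 and 1 RPKM and 19 lay under 0.1 RPKM.

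**Figure D1:**
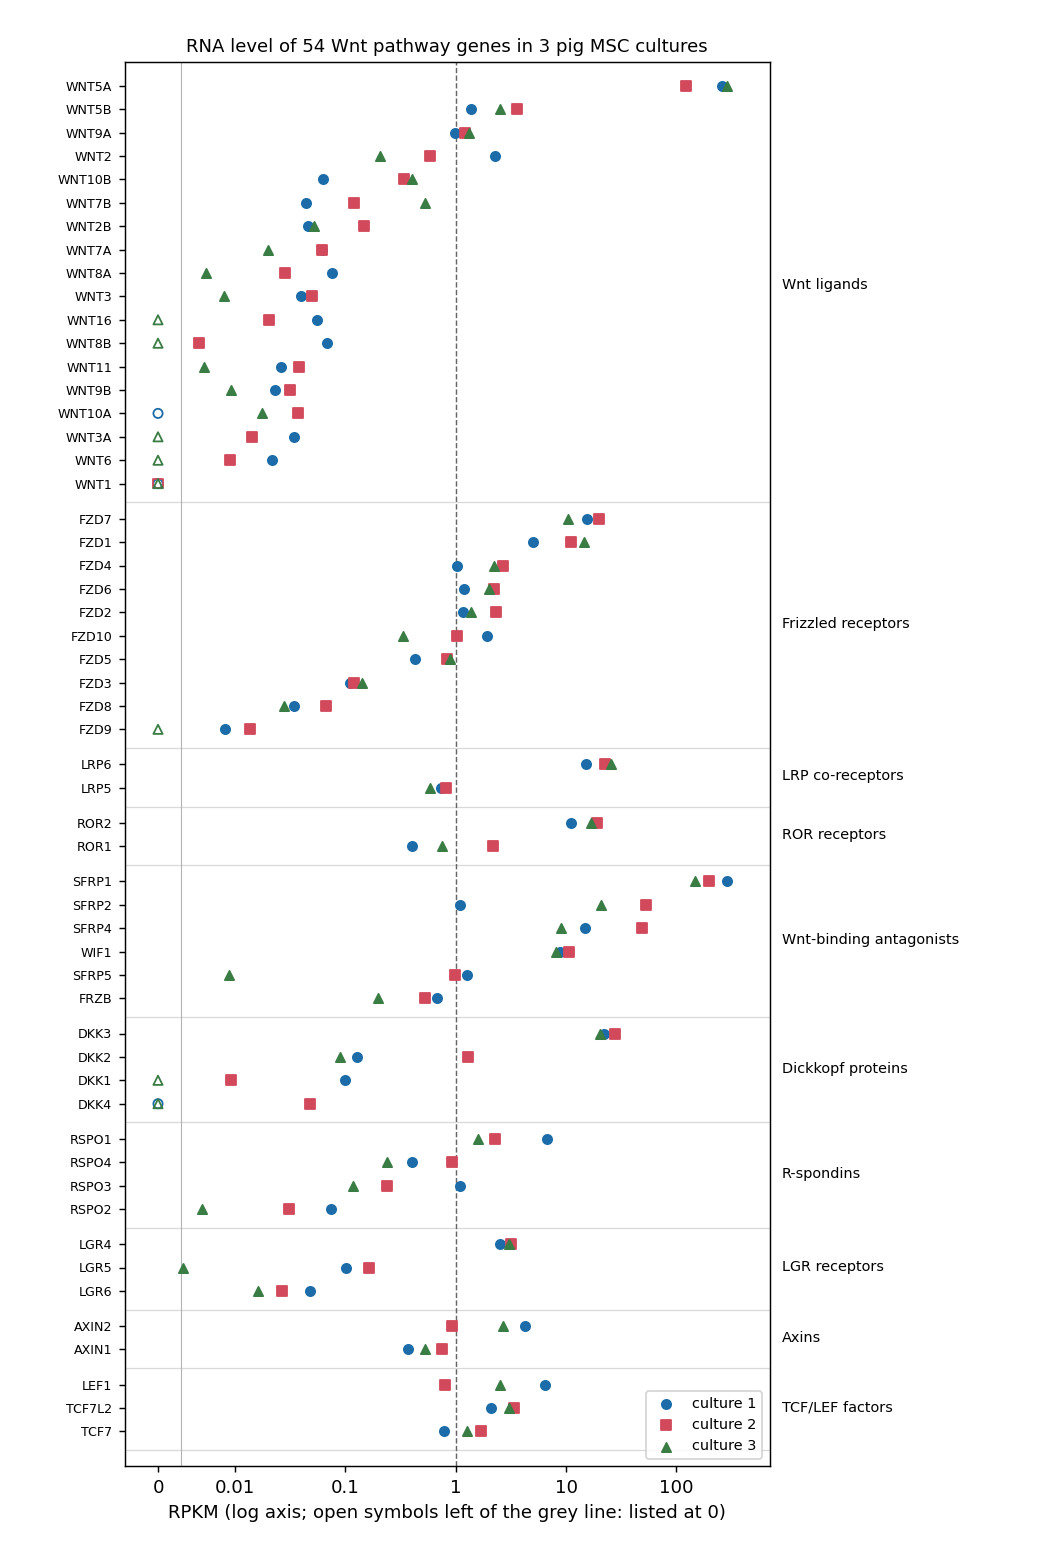
RNA level of each of the 54 Wnt pathway genes in cultures 1, 2 and 3, in RPKM on a log axis, grouped by role; open symbols mark genes listed at 0 and the dashed line marks 1 RPKM. WNT5A and SFRP1 stand far to the right of their own groups, and 12 of the 18 ligands have means under 0.1 RPKM.

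Among the 18 ligands, WNT5A supplied nearly all of the RNA. WNT5A (ENSSSCG00000035859, chromosome 13, 37344699 to 37367207), the best known ligand of the beta-catenin-independent branch, had 261, 122 and 286 RPKM in cultures 1, 2 and 3, from 94812, 53381 and 129759 reads. Culture 2 was the lowest, and even there WNT5A ranked 246th of 20288 protein-coding genes (110th in culture 1 and 91st in culture 3). Its mean was 223 ± 88.2 RPKM (SD, n = 3), which limma placed above 1 RPKM (log2 difference 7.13, SE 0.33, adjusted p = 3.1e-20). WNT5A made up 98.1%, 95.1% and 98.3% of the summed RPKM of the 18 ligands matched by name, which was 266, 129 and 291 RPKM.

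Its close paralogue WNT5B (ENSSSCG00000000759, chromosome 5, 68627151 to 68731935) had 1.37, 3.62 and 2.50 RPKM. It lay above 1 RPKM (2.50 ± 1.13 RPKM, SD, n = 3, limma adjusted p = 0.0015), but not without culture 2 (adjusted p = 0.074, range over 12 alternatives 6.1e-05 to 0.074). Its gene body overlaps FBXL14, whose reads came to 20.6% of its own. WNT5B was highest in culture 2, where WNT5A was lowest, and the ratio of WNT5A to WNT5B was 191, 33.8 and 114. WNT2, a ligand that acts through beta-catenin in lung and other mesenchyme, had 2.26, 0.586 and 0.207 RPKM, highest in culture 1 by a wide margin. Its mean of 1.02 ± 1.09 RPKM (SD, n = 3) was undecided against 1 RPKM. A stretch of 298 bases of its gene body is shared with ST7, whose reads came to 509% of its own, so without a known strand reads there cannot be assigned. WNT9A had 0.992, 1.20 and 1.32 RPKM and was undecided as well, with a highest-over-lowest ratio of 1.33.

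The other 14 ligands were low. WNT10B (0.063, 0.343 and 0.398 RPKM) and WNT7B (0.044, 0.118 and 0.522 RPKM), named after their values were seen, lay below 1 RPKM and were both lowest in culture 1. The remaining 12 had means under 0.1 RPKM, and 11 of these had reads and lay below 1 RPKM. WNT3A, the ligand most used to activate beta-catenin in the laboratory, had 0.034 and 0.014 RPKM in cultures 1 and 2, from 2 reads and 1 read, and was listed at 0 in culture 3. WNT1 had no read in any library, which allows up to 0.049, 0.041 and 0.039 RPKM (3 reads, counting error only).

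Levels this low are mostly of the size of the background. The median of 103 olfactory receptor genes, which are seldom active outside the nose, was 0.061, 0.051 and 0 RPKM in cultures 1, 2 and 3. Their 95th percentile was 0.164, 0.153 and 0.054 RPKM. Of the 19 members with a mean under 0.1 RPKM, 15 were lowest in culture 3 (78.9%), as were 77.4% of the 13933 genes of the table with a read and a mean in that range. In 17 of these members no library held more than 12 reads. The exceptions were WNT2B, with 15, 58 and 21 reads in cultures 1, 2 and 3, and LGR5, with 24, 46 and 1. In culture 2 LGR5, at 0.163 RPKM, lay above the 95th percentile of the olfactory receptor genes. The whole gene body of WNT2B overlaps ST7L, whose reads came to 2491% of its own, so its reads may belong to ST7L.

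Several ligand genes lie side by side in the genome. WNT9A and WNT3A are 25.7 kb apart on chromosome 2 with no gene of the table between them, and only WNT9A had a mean above 1 RPKM (1.17 against 0.016 RPKM). In the other close pairs both genes were low. WNT3 and WNT9B, 27.5 kb apart on chromosome 12, had means of 0.033 and 0.021 RPKM, and WNT6 and WNT10A, 7.80 kb apart on chromosome 15, had 0.010 and 0.018 RPKM. WNT10B and WNT1 on chromosome 5 overlap by 2935 bases, and the reads were listed for WNT10B alone.

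Receptors for these ligands were present in every class. FZD7 (ENSSSCG00000016111, chromosome 15, 105644188 to 105648854) was the highest of 10 Frizzled genes, with 15.6, 19.9 and 10.3 RPKM (15.3 ± 4.81, SD, n = 3). FZD1 (ENSSSCG00000036436, chromosome 9, 71349988 to 71352104), also a Wnt receptor, had 4.98, 11.2 and 14.4 RPKM (10.2 ± 4.79, SD, n = 3). The values of these receptors overlapped across cultures, and their order was not stable: FZD7 exceeded FZD1 3.13-fold in culture 1 and 1.78-fold in culture 2, while in culture 3 the ratio was 0.718. FZD7 and FZD1 together with FZD4 and FZD6 lay above 1 RPKM in limma, with FZD7 at a log2 difference of 3.35 (SE 0.25, adjusted p = 1.7e-14).

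FZD4, which is also the receptor of norrin, had 1.03, 2.69 and 2.24 RPKM, and FZD6 had 1.18, 2.22 and 1.99 RPKM. Both were lowest in culture 1 and closer to 1 RPKM than FZD7 or FZD1. Their calls (limma adjusted p = 0.018 and 0.032) were lost without culture 2 (0.23 for each) and without culture 3 (0.15 and 0.18), and over 12 alternatives ranged from 0.0011 to 0.23 for FZD4 and 0.0044 to 0.23 for FZD6. The annotated body of FZD4 overlaps ME3 over its whole length and also meets PRSS23, and the reads of these genes came to 89.7% and 387% of its own, so part of its value may belong to them. FZD2 (1.17, 2.31 and 1.39 RPKM), FZD10 (1.92, 1.03 and 0.336 RPKM) and FZD5 (0.426, 0.829 and 0.893 RPKM) were undecided. FZD10 was highest in culture 1, unlike the other Frizzled genes whose mean reached 1 RPKM. FZD3, FZD8 and FZD9 lay below 1 RPKM with means of 0.124, 0.043 and 0.007 RPKM.

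Of the co-receptors that carry the signal to beta-catenin, LRP6 was by far the higher. LRP6 (ENSSSCG00000000625, chromosome 5, 60149028 to 60314689) had 15.2, 22.7 and 25.4 RPKM (21.1 ± 5.28, SD, n = 3), lowest in culture 1, and lay above 1 RPKM (limma adjusted p = 5.5e-16). LRP5 had 0.730, 0.817 and 0.586 RPKM and was undecided. LRP6 thus exceeded LRP5 20.8-, 27.8- and 43.3-fold within the libraries, in 3 of 3 cultures.

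The ROR receptors, tyrosine kinase-like proteins that bind WNT5A, showed the same kind of imbalance. ROR2 (ENSSSCG00000009593, chromosome 14, 2804061 to 3035241) had 11.0, 19.2 and 16.7 RPKM (15.6 ± 4.17, SD, n = 3, limma adjusted p = 9.6e-15 against 1 RPKM). ROR1 had 0.402, 2.18 and 0.747 RPKM, highest in culture 2, and was undecided. ROR2 exceeded ROR1 27.4-, 8.77- and 22.3-fold, and its lowest value lay above the highest of ROR1.

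Secreted antagonists that bind Wnt proteins were of the same order of abundance as the ligands, with 314, 312 and 187 RPKM summed over 6 genes. SFRP1 (ENSSSCG00000025822, chromosome 17, 10436426 to 10489748), a Frizzled-related protein that captures Wnt outside the cell, had 287, 198 and 149 RPKM in cultures 1, 2 and 3, from 58925, 48705 and 38127 reads. Its mean was 211 ± 70.3 RPKM (SD, n = 3; log2 difference from 1 RPKM 7.09, SE 0.32, limma adjusted p = 1.7e-20), and it ranked 100th, 142nd and 176th among protein-coding genes. The ratio of SFRP1 to WNT5A was 1.10, 1.61 and 0.520, so SFRP1 was the higher in cultures 1 and 2 and WNT5A in culture 3, and their ranges overlapped.

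The paralogues SFRP2 and SFRP4 varied far more. SFRP2 (ENSSSCG00000009004, chromosome 8, 75337133 to 75345926), a marker of some stromal cells, had 1.09, 53.1 and 20.7 RPKM, from 123, 7209 and 2923 reads. Culture 1 was 48.8-fold below culture 2, and the mean of 25.0 ± 26.3 RPKM (SD, n = 3) was undecided against 1 RPKM (limma adjusted p = 0.16). Without culture 1 SFRP2 lay above 1 RPKM (adjusted p = 1.3e-07, range over 12 alternatives 1.3e-07 to 0.51). With all cultures kept it also did so in limma with a prior variance that was not robust (adjusted p = 0.0010). The same held with no filter (0.030) and with genes whose mean reached 0.1 RPKM (0.023). In 8 of the 12 alternatives it did not pass. SFRP4 (ENSSSCG00000035299, chromosome 9, 108404042 to 108414311) had 14.9, 49.0 and 8.93 RPKM (24.3 ± 21.6, SD, n = 3), highest in culture 2, and lay above 1 RPKM (limma adjusted p = 4.3e-05). SFRP2 made up 0.347%, 17.0% and 11.1% of the summed RPKM of the Wnt-binding antagonists and SFRP1 91.5%, 63.4% and 79.6%.

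WIF1 (ENSSSCG00000030998, chromosome 5, 29450442 to 29548116), a Wnt inhibitor of another protein family, was nearly even at 8.76, 10.5 and 8.14 RPKM (9.14 ± 1.24, SD, n = 3, limma adjusted p = 1.9e-12 against 1 RPKM). FRZB, named after its values were seen, had 0.672, 0.522 and 0.196 RPKM and lay below 1 RPKM (limma adjusted p = 0.0046), which did not hold with culture 3 left out (0.17, range over 12 alternatives 0.0013 to 0.17). SFRP5 was listed at 1.26, 0.976 and 0.009 RPKM and was undecided. Its whole gene body lies inside ZFYVE27 and GOLGA7B, whose reads came to 965% and 404% of its own, so its value cannot be assigned to it.

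Of the 4 Dickkopf genes, the antagonists of LRP6 were low and the divergent member DKK3 was high. DKK3 (ENSSSCG00000013401, chromosome 2, 47385191 to 47446538), which unlike DKK1 is not known as a strong inhibitor of LRP6, had 21.9, 27.6 and 20.4 RPKM (23.3 ± 3.81, SD, n = 3, limma adjusted p = 1.4e-16 against 1 RPKM). It made up 99.0%, 95.3% and 99.6% of the RPKM of this family. DKK1, the inhibitor most used in Wnt research, had 0.099 and 0.009 RPKM in cultures 1 and 2, from 9 reads and 1 read, and was listed at 0 in culture 3. DKK2, named after its values were seen, had 0.127, 1.30 and 0.089 RPKM, a 14.7-fold range that rested on culture 2. DKK2 lay below 1 RPKM (limma adjusted p = 0.022), but with culture 1 left out the value was 0.22 and with culture 3 left out 0.13, within a range of 2.2e-10 to 0.22 over 12 alternatives.

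R-spondins are secreted proteins that, through LGR receptors, protect Frizzled and LRP6 from removal by the ligases RNF43 and ZNRF3. RSPO1 (ENSSSCG00000032240, chromosome 6, 93665138 to 93685197) was the highest, with 6.73, 2.28 and 1.60 RPKM from 504, 205 and 150 reads (3.54 ± 2.79, SD, n = 3, limma adjusted p = 0.0012 against 1 RPKM). Culture 1 was 4.20-fold above culture 3. RSPO3 followed the same order at a lower level, with 1.09, 0.239 and 0.118 RPKM, while RSPO4 was highest in culture 2 (0.399, 0.934 and 0.239 RPKM). Both were named after their values were seen and lay below 1 RPKM (limma adjusted p = 0.0075 and 0.013). Those calls were lost without culture 2 (0.084) and without culture 3 (0.15) for RSPO3, and without culture 1 (0.053) and culture 3 (0.24) for RSPO4, the ranges over 12 alternatives being 1.8e-05 to 0.15 and 0.0045 to 0.24.

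Of the LGR receptors, only LGR4 was expressed above 1 RPKM. LGR4 (ENSSSCG00000013335, chromosome 2, 32871871 to 32979148) was even across the cultures at 2.52, 3.18 and 3.02 RPKM (2.91 ± 0.342, SD, n = 3, limma adjusted p = 4.8e-05). LGR5, known as a marker of intestinal stem cells, had 0.102, 0.163 and 0.003 RPKM, and LGR6 had a mean of 0.030 RPKM, both below 1 RPKM.

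Within the cell, AXIN2 and LEF1 differed between the cultures in the same order. Both are widely used as direct target genes of beta-catenin, besides being parts of the pathway. AXIN2 (ENSSSCG00000017265, chromosome 12, 12311293 to 12343200) had 4.24, 0.933 and 2.66 RPKM in cultures 1, 2 and 3, from 958, 253 and 752 reads. LEF1 (ENSSSCG00000009148, chromosome 8, 113824547 to 113944078) had 6.47, 0.807 and 2.52 RPKM, from 1508, 226 and 734 reads. Each was highest in culture 1 and lowest in culture 2, with a highest-over-lowest ratio of 4.55 for AXIN2 and 8.02 for LEF1.

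AXIN2 averaged 2.61 ± 1.66 RPKM and LEF1 3.27 ± 2.91 RPKM (SD, n = 3 each), and both lay above 1 RPKM (limma adjusted p = 0.0078 and 0.037). Without culture 1 neither passed (adjusted p = 0.10 and 0.19). Over 12 alternatives the adjusted p ran from 0.00015 to 0.10 for AXIN2, where 2 did not pass, and from 7.2e-06 to 0.19 for LEF1, where 6 did not.

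On the deposited scaling, AXIN2 and LEF1 were 2 of 24 expressed members with the order culture 1, then 3, then 2, and no other member had it. Of the 10474 genes whose mean reached 1 RPKM, 8.01% had this order, so it was about as frequent among the members as in the table. For these 2 genes the scaling of the libraries did not alter it: with median-of-ratios factors, with TMM factors and with protein-coding reads as the base, the order was the same for both genes. SFRP1 took the same order with median-of-ratios factors (288, 168 and 174 RPKM) and WNT5A with protein-coding reads as the base (305, 113 and 264 RPKM), and the share over all genes was then 16.1% and 14.0%. With TMM factors no other member had it, and the share over all genes was 14.6%. Under none of these 3 scalings was the order more frequent among the members than among all genes. The highest-over-lowest ratio under these 3 scalings ran from 5.14 to 5.73 for AXIN2 and from 9.06 to 10.1 for LEF1. The small RNA share of 28.3% in culture 1 stood beside these differences, and its part in these differences was not tested.

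The closest relatives of these genes did not follow them. AXIN1, the other Axin scaffold, had 0.373, 0.751 and 0.525 RPKM, lowest in culture 1, and lay below 1 RPKM (limma adjusted p = 0.027, lost without culture 1 at 0.088 and without culture 3 at 0.10, range over 12 alternatives 0.0083 to 0.10); it was named after its values were seen. TCF7L2 (ENSSSCG00000010638, chromosome 14, 123343694 to 123546417) had 2.09, 3.34 and 3.02 RPKM (2.82 ± 0.649, SD, n = 3, limma adjusted p = 1.0e-04 against 1 RPKM). TCF7 had 0.787, 1.69 and 1.28 RPKM and was undecided. The make-up of the 3 TCF/LEF genes matched by name therefore differed: LEF1 was 69.2%, 13.8% and 37.0% of their summed RPKM, and TCF7L2 22.4%, 57.2% and 44.3%. The ratio of AXIN2 to AXIN1 was 11.4, 1.24 and 5.08.

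**Figure D2:**
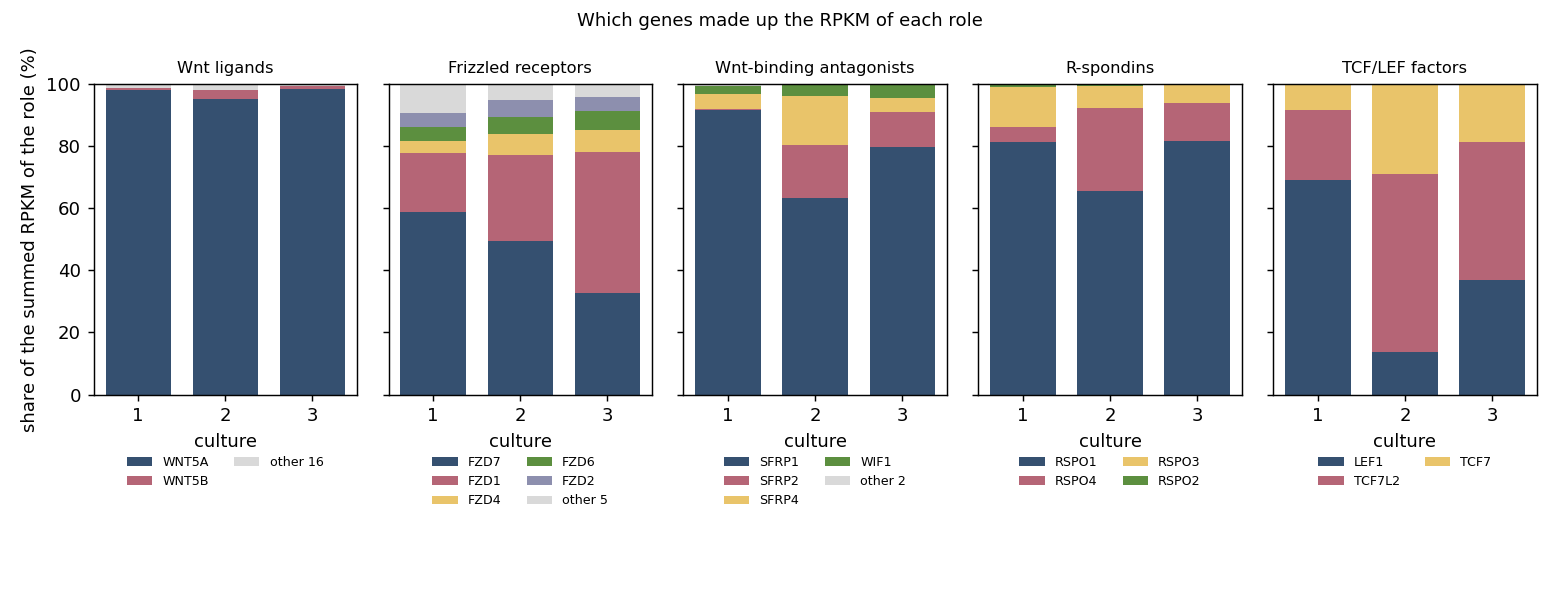
Share, in percent, of the summed RPKM of each role contributed by its members in cultures 1, 2 and 3, for 5 roles. The ligand bars are almost wholly WNT5A (95.1% to 98.3%), while the share of LEF1 among TCF/LEF factors ran between 13.8% in culture 2 and 69.2% in culture 1.

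Most of the other Wnt pathway genes examined, which include target genes and inhibitors besides parts of the machinery, lay above 1 RPKM. Of 85 measured genes on a list of other Wnt pathway genes, 57 lay above 1 RPKM, 19 below and 9 were undecided, which is 67.1% above against 30.6% of all genes and 42.0% of protein-coding genes. Their median log2 difference was 1.85, against -1.27 for all genes tested and -0.25 for protein-coding genes. For the secretion of Wnt proteins, WLS, which carries them to the surface, had 30.8, 29.2 and 55.6 RPKM, and PORCN, which attaches their lipid, had 5.70, 8.60 and 13.7 RPKM. Both were highest in culture 3, as WNT5A was on the deposited scaling but not when scaled to protein-coding reads. NOTUM, which removes that lipid, lay below 1 RPKM at 0.021 ± 0.008 RPKM (SD, n = 3).

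In the destruction complex and its relay, 16 of 20 measured genes were above 1 RPKM and 2, APC2 and DACT2, below. Of those above, DVL3, DVL1, DVL2 and APC overlap AP2M1, UBE2J2, ACADVL and REEP5, whose reads came to 362%, 305%, 228% and 198% of their own. Part of the values of DVL3, DVL1, DVL2 and APC may therefore belong to these neighbours. CTNNB1, which encodes beta-catenin, had 87.8, 62.3 and 73.4 RPKM, the kinase CSNK1A1 36.4, 39.7 and 42.5 RPKM, and the tankyrase TNKS2 15.7, 22.0 and 20.7 RPKM. CTNNB1 was highest in culture 1 and lowest in culture 2, with a highest-over-lowest ratio of 1.41. Of 13 nuclear cofactors 12 lay above 1 RPKM and none below (TLE2 was undecided), led by TLE5 (33.4 ± 5.53 RPKM), CHD8 (20.1 ± 4.01) and EP300 (19.5 ± 1.46; SD, n = 3 each).

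Among other proteins of the cell surface and its surroundings, 6 of 16 lay above 1 RPKM and 8 below (37.5% and 50.0%, near the 42.0% and 47.8% of protein-coding genes). The highest were IGFBP4 (240, 140 and 155 RPKM), an IGF-binding protein also described as a Wnt inhibitor, and the receptors RYK (77.5, 90.5 and 87.2 RPKM) and PTK7 (31.8, 59.6 and 38.2 RPKM), which take part in WNT5A signalling. Those below were ZNRF3, TNFRSF19, NDP, APCDD1, KREMEN2, SOSTDC1, SOST and MUSK, with means of 0.019 to 0.329 RPKM. Of 23 genes of the polarity and calcium branch, 15 lay above 1 RPKM, led by the GTPases RHOA (108 ± 24.0 RPKM) and RAC1 (89.5 ± 22.7) and by PRICKLE2 (24.0 ± 6.17; SD, n = 3 each). The 6 below were CELSR1, CELSR2, CELSR3, VANGL2, PLCB4 and CAMK2A.

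Genes often used as readouts of beta-catenin did not move as a block. Of 14 measured, 6 lay above 1 RPKM and 5 below (SP5, NOTUM, ZNRF3, TNFRSF19 and CCN5), and the 42.9% above was near the 42.0% of protein-coding genes. CD44 had 70.9, 80.3 and 83.8 RPKM, CCND1 28.5, 48.4 and 34.3 RPKM, and CCN4 10.5, 23.9 and 32.5 RPKM. All of these were lowest in culture 1 on the deposited scaling, as were 57.0% of the 10474 genes averaging 1 RPKM or more. Scaled to protein-coding reads CCN4 was still lowest there, but CCND1 was lowest in culture 3 (33.3, 44.9 and 31.7 RPKM) and CD44 took the order of AXIN2 and LEF1 (82.8, 74.5 and 77.5 RPKM). On the deposited scaling 2 of the 14 had that order (14.3%), namely SNAI2 (18.9, 8.58 and 13.6 RPKM) and NKD1 (0.922, 0.374 and 0.612 RPKM, undecided against 1 RPKM), both named after their values were seen. The share over the 10474 genes was 8.01%, but the 2 sets are unlike. Only 8 of the 14 had a mean of at least 1 RPKM, and NKD1, with a mean of 0.636 RPKM, did not. Under the other scalings 2 or 3 of the 14 had the order, with shares of 14.0% to 16.1% over the 10474 genes, again an unlike set.

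Differences between the cultures were wider for the 24 members with a mean of at least 1 RPKM than for the typical gene past that filter, but none passed the test of spread. Of these 24 members, 13 had a highest-over-lowest ratio above 2 (27.5% of all 10474 such genes did) and 8 a ratio above 4 (6.88% did). WNT2 and ROR1, both with a ratio above 4, exceeded 1 RPKM in only 1 culture each and met the filter through it. FZD10 (1.92, 1.03 and 0.336 RPKM, ratio 5.73) likewise missed the filter without culture 1. For WNT2, ROR1 and FZD10 the high value that made the ratio also met the filter, so their ratios are not independent of it. In these ratios the 10474 genes were not matched to the members for level. The median ratio was 2.24 for the 24 members and 1.59 for all 10474 genes. In all 24 the 95% Poisson intervals of the highest and lowest culture, which cover counting error only, did not meet, and this held for 93.0% of the 10474 genes. An F test of each gene's variance against that of genes of like level (limma's trended prior, adjusted over 10474 genes) called 0 members and 0.0% of all genes. At an unadjusted p under 0.05 it called 4 members (SFRP2, SFRP4, LEF1 and RSPO1) and 5.93% of all genes.

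SFRP2 had the widest spread (log2 SD 2.63), ranking 16th of the 10474 genes, with an unadjusted p of 0.00046 in limma's F test and an adjusted p of 0.44. It passed with median-of-ratios factors (adjusted p = 0.046), with all genes that had a read (1.1e-05) and without culture 3 (6.2e-12), within a range of 6.2e-12 to 0.78 over 11 alternatives. SFRP4 had a log2 SD of 1.23 (adjusted p = 0.66), LEF1 1.21 (0.70), RSPO1 0.93 (0.80) and AXIN2 0.88 (0.85). The lowest values of this SD on the deposited scaling were those of WNT9A (0.15), LGR4 (0.15), WIF1 (0.18), DKK3 (0.22) and TCF7L2 (0.30).

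**Figure D3:**
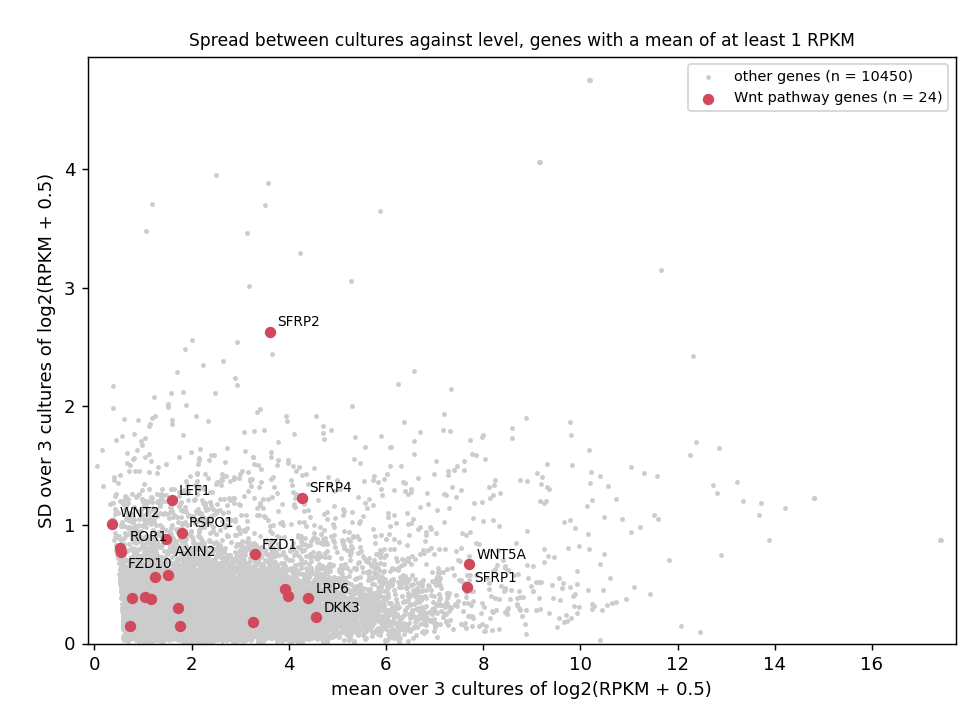
SD over the 3 cultures against mean level, both of log2(RPKM + 0.5), for 24 Wnt pathway genes (red) and 10450 other genes whose mean reached 1 RPKM (grey). SFRP2 stands near the top of the cloud at 2.63, followed among Wnt genes by SFRP4 at 1.23 and LEF1 at 1.21.

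By culture, 6 of the 24 members were highest in culture 1 (RSPO1, FZD10, LEF1, SFRP1, AXIN2 and WNT2), 14 in culture 2 and 4 in culture 3 (WNT5A, WNT9A, FZD1 and LRP6). Of all 10474 genes, 22.3%, 54.4% and 23.3% were highest in cultures 1, 2 and 3, so the members were distributed much like the table as a whole. With median-of-ratios factors the counts were 6, 6 and 12. That scaling divides every gene of the table by 0.996, 1.18 and 0.853 in cultures 1, 2 and 3. It therefore lowers all genes in culture 2 and raises all in culture 3, and the shares over all genes are not given here. WNT5A changed its highest culture with the scaling: scaled to protein-coding reads it had 305, 113 and 264 RPKM, so that culture 1 and not culture 3 was the highest, while culture 2 was the lowest under each of the 4 scalings.

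Other features of the cultures moved with some of these differences. In culture 2, where SFRP2, SFRP4, DKK2 and ROR1 were highest, the summed RPKM of 4 markers of dividing cells (TOP2A, CCNB1, MCM6 and CENPF) was 122, against 42.0 in culture 1 and 26.9 in culture 3. Culture 2 was the highest for 14 of the 24 members and 54.4% of the 10474 genes on the deposited scaling, so that place is common. All 4 markers were highest there, but MCM6 and CENPF were lowest in culture 1 and TOP2A and CCNB1 in culture 3. The muscle filament gene DES, 1 of 4 skeletal muscle markers, had 0.138, 6.37 and 0.303 RPKM, while MYOD1, PAX7 and MYF5 were all under 0.1 RPKM in mean. The part of these features in the levels of the Wnt genes was not tested.

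**Figure D4:**
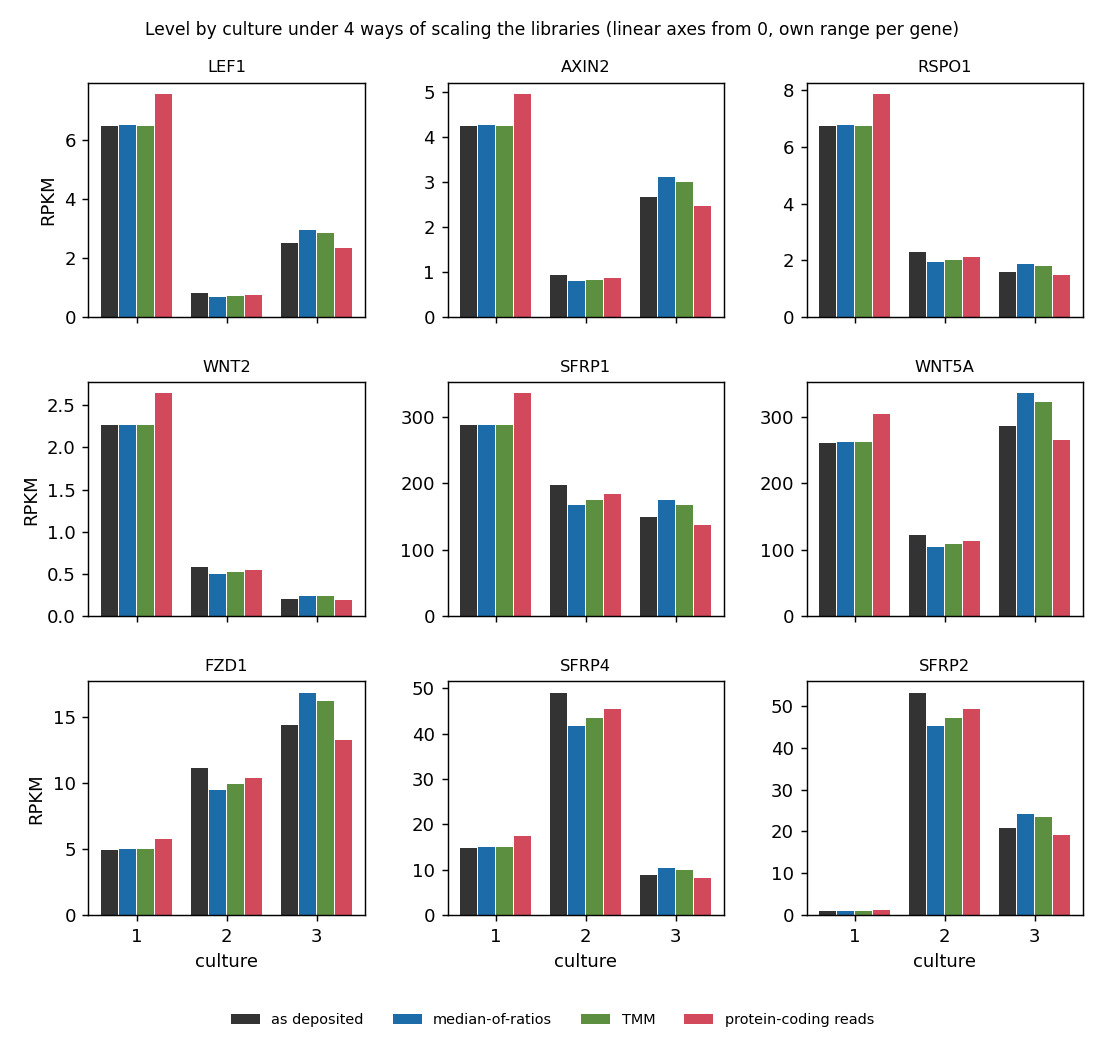
RPKM of 9 Wnt pathway genes in cultures 1, 2 and 3 under 4 scalings of the libraries (bars, linear axes from 0 with a range for each gene). LEF1 and AXIN2 keep culture 1 highest and culture 2 lowest in every scaling, SFRP2 keeps culture 2 highest, and the highest culture of WNT5A changes when protein-coding reads are the base.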

How the data were processed

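RNA-seq of 3 adipose MSC cultures was analysed from a single table. The values the authors deposited are RPKM, per the file headers, and the genome build is susScr11, per the submitters' processing notes; coordinates are those of the table. The sources used here name no aligner, counter, annotation release or strandedness. Each RPKM times the listed length plus 1 base was a whole multiple of a single step per column for 100% of values (tolerance 1e-06 of a read), which gave the reads quoted. Poisson intervals (95%) and floors of 3 reads cover counting error only.

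The tests had been planned on log2(RPKM + 0.5) with limma 3.58.1 in R 4.3.3: the mean against 1 RPKM (trended, robust prior; genes with at least 1 read) and an F test of the variance over its prior (2 residual df; mean of at least 1 RPKM), both Benjamini-Hochberg adjusted, threshold 0.05. Both were also run on simulated reads drawn with the same dispersion for every gene. That setting does not show how often the tests would detect a difference in these data. Such p-values draw on genes of similar level as well as on the gene's own spread. Median-of-ratios and TMM factors were computed in Python 3.11.15 from the recovered reads. The members and lists were chosen with earlier results of these data known. Named in full are members with a mean of at least 1 RPKM and AXIN2, LEF1, TCF7, LGR5, DKK1, WIF1 and WNT3A, the 3 highest below 1 RPKM, those at 0, and of other pathway genes the 3 highest of each role and those below 1 RPKM. Of 95 other pathway genes, 85 were matched by name. Small RNA genes are the snoRNA, snRNA, miRNA, misc_RNA, rRNA, ribozyme, scaRNA and Y_RNA entries.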

Additional observations from a re-analysis of the deposited data

How the results depend on the processing

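Of 53 members with a level test, 37 kept their direction and their side of the threshold under every alternative run for them, and 16 did not. For a single member 10 to 12 alternatives could be run, and all 12 for 35 members. The counts of members above and below 1 RPKM stayed within 1.5 times of 17 and 26, except that 9 lay above when the level was 2 RPKM and 7 lay below when the test was kept to genes whose mean reached 0.1 RPKM, since fewer genes were then tested; in that setting 8 of the other pathway genes lay below, against 19. Leaving out a culture turned the direction of 4 undecided members, whose log2 difference from 1 RPKM ran from -0.50 to 0.29 for ROR1, -0.41 to 0.36 for FZD10, -0.79 to 0.10 for SFRP5 and -0.78 to 0.21 for WNT2. ROR1 turned without culture 1 (0.29) and without culture 3 (0.05), the others without culture 3. The number of members past the spread test was 1 (SFRP2) with median-of-ratios factors and with all genes that had a read, and 0 to 1 with a culture left out; over all genes these settings called 14, 123 and, without culture 3, 131. With median-of-ratios factors 6 members were highest in culture 2 and 12 in culture 3. These factors lower every gene in culture 2 and raise every gene in culture 3, and the shares over all genes are not given here. No paired analysis was possible because there is a single group. With 2 cultures left, 1 residual degree of freedom remains per gene and the tests lean still more on other genes. Chosen after seeing the data, the scalings were also applied to the order culture 1, 3, 2, which 2 to 3 of 24 members and 2 to 3 of 14 target genes had. Depth limits 17 of the 19 members under 0.1 RPKM, which had at most 12 reads in any library.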
